A study of Mus musculus with 3 samples.

Results

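The genes described here encode splicing factors and spliceosome proteins, and they were measured in mesangial cells sorted from adult mouse glomeruli. The members were all genes named Srsf, Hnrnp, Sf3a, Sf3b, Snrp, Prpf, Lsm or U2af with their numbers and letters, together with the Rbfox, Mbnl, Celf, Ptbp and Esrp families. They numbered 91 of the 19938 named genes on the array, and none was chosen by its value. Hnrnpa1, Hnrnpa1l2-ps2, Hnrnpa3, Hnrnph3, Snrpf and Snrpn fit these names but shared their probe sets with other gene symbols, so they were not counted as members.

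The 3 samples formed 1 group, untreated and without controls, and conditions could therefore not be compared. Each sample held cells from 1 kidney, not pooled, of an adult male CD-1 mouse carrying the transgene Tg(Meis1-EGFP)FO156Gsat, in which Meis1 regulatory sequence on an artificial chromosome drives a green fluorescent protein. Cells dissociated from sieved glomeruli were sorted by flow cytometry, so the transgene limits which cells were taken. The labels name both the glomerular mesangium and the mesangium outside it as the source. Whether separate mice gave the kidneys is not stated, and the spread between samples may be partly technical.

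Pre-mRNA splicing removes introns in the spliceosome, a machine of small nuclear ribonucleoproteins (snRNPs, named U1, U2, U4, U5 and U6 after their RNAs) and many other proteins. A core of snRNP proteins is needed in every nucleated cell. SR proteins, which carry stretches rich in arginine and serine, mostly promote the use of exons, and hnRNP proteins often oppose it. A further set of RNA-binding proteins, such as the RBFOX, MBNL, CELF and ESRP families, is restricted to or enriched in certain tissues, and sets the choice of exons in muscle, neurons or epithelium.

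All values are deposited log2 signals, given per sample in the order 1, 2 and 3, or as the mean ± SD (n = 3). A gene was called above the silent-gene threshold when its signal passed, in each sample, the 95th percentile of 1269 silent probe sets on the same array. These stood for keratin-associated proteins and for the olfactory, vomeronasal and trace amine receptors, gene families of hair and of the sense of smell. The thresholds were 7.48, 7.46 and 7.40. A second, stricter call asked for a signal more than 1 above the threshold in each sample. Probe sets differ in affinity, and signals of different genes therefore do not rank their amounts. Of the mesangial markers on a list of 14 genes, all 14 lay more than 1 above the threshold. Of 12 tubule and epithelial markers 5 passed the threshold, but none passed it by more than 1 in all 3 samples. Umod did so in samples 1 and 2, at 9.51 and 9.18, and Krt8 in sample 3. By contrast, all 8 endothelial markers passed the threshold, 5 of them by more than 1 in all 3 samples, with Eng the highest at 11.17 ± 0.17. Of 8 podocyte markers 6 were measured, of which 4 passed the threshold and 2 passed it by more than 1. Of 7 macrophage markers 3 passed it, and 1 of these, Cd14 at 9.35 ± 0.10, did so by more than 1.

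Most splicing genes were detected. Of the 91 members 83 lay above the threshold in all 3 samples (91.2%), against 58% of the 18685 named genes outside the silent families. More than 1 above the threshold lay 75 of the 91 (82.4%), against 32.7% of named genes. The silent families themselves passed in 59 of 1253 genes (4.71%) at the threshold and in 12 (0.958%) at the stricter call. The 8 members not above the threshold were Srsf12, Hnrnpa0, Celf4, Celf6, Rbfox1, Rbfox3, Esrp1 and Esrp2. With the exception of Hnrnpa0 and Srsf12, they belonged to the CELF, RBFOX and ESRP families. At the 90th percentile of the silent probe sets, which 68.8% of named genes passed, Celf6, Esrp2 and Hnrnpa0 were called as well.

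**Figure D1:**
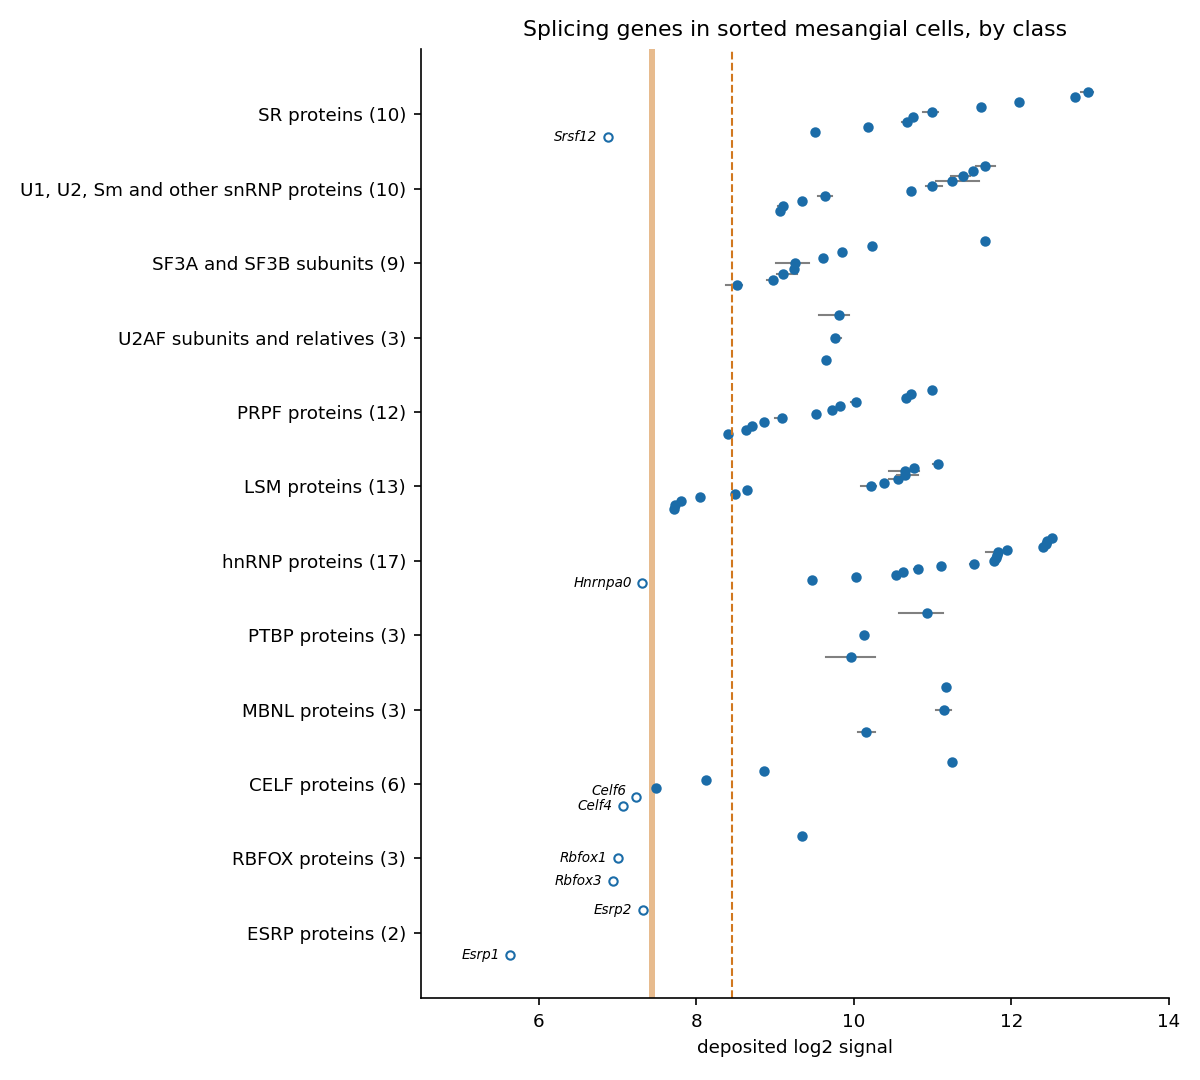
Mean deposited log2 signal (points) and lowest to highest sample (grey lines) of the 91 splicing genes, in 12 classes with the number of genes in parentheses. The shaded band spans the silent-gene thresholds of the 3 arrays (7.40 to 7.48), the dashed line is the mean threshold raised by 1, and open points are the 8 genes not above the threshold, which lie mostly in the CELF, RBFOX and ESRP rows.

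The SR proteins were detected with 1 exception. Of 10 measured genes 9 lay more than 1 above the threshold. Srsf3, whose product also links splicing to mRNA export, had 12.89, 13.04 and 13.01 in samples 1, 2 and 3. However, another Srsf3 probe set, placed on the gene's own chromosome by its neighbours in the probe set numbering, had 10.10, 10.10 and 10.26. Srsf5 had 12.81, 12.84 and 12.80, and Srsf2, whose product binds exonic enhancers, had 12.07, 12.11 and 12.11. Srsf1, the founding member of the family, had 10.88, 11.07 and 11.04, and Srsf6 10.61, 10.73 and 10.70. Both were lowest in sample 1. So were 5 of the 9 detected SR genes, against 18.8% of the named genes above the threshold. However, the widest range between samples in the class was 0.18. Srsf10 had 11.62 ± 0.01, or 9.69, 9.50 and 9.50 with the probe set on its own chromosome. Srsf4 had 10.75 ± 0.00, Srsf11 10.19 ± 0.01 and Srsf9 9.51, identical in the 3 samples. Srsf12 stood at 6.87 in each sample and was not above the threshold.

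All measured snRNP proteins were detected. The 10 genes lay more than 1 above the threshold, with means from 9.06 to 11.67, although Snrpc passed by less than 1 with the probe set on its own chromosome (8.07 in each sample). Of the Sm proteins, which form a ring on the U1, U2, U4 and U5 RNAs, Snrpd3 had 11.79, 11.55 and 11.66, Snrpg 11.48, 11.24 and 11.46, and Snrpe 11.13, 11.04 and 11.59. Snrpd2 had 11.00 ± 0.11, Snrpd1 10.72 in each sample and Snrpb, the lowest of the class, 9.08, 9.06 and 9.06. The remaining ring member, Snrpf, shared its probe set with another symbol, and that probe set had 11.43 in each sample. Of the U2 proteins, Snrpb2 had 11.52, 11.52 and 11.50 and Snrpa1 9.64 ± 0.09, and the U1 proteins Snrpa and Snrpc had 9.34 in each sample and 9.10 ± 0.06. Sample 2 alone was the lowest of the 3 for 5 of the 10 genes, against 15.4% of the named genes above the threshold.

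The SF3A and SF3B complexes, the parts of the U2 snRNP that hold it to the branch site of the intron, were detected in full as far as measured. All 9 genes passed the threshold and 8 passed it by more than 1. Sf3b1, whose product clamps the branch site, had 11.66, 11.68 and 11.66. Sf3b3 had 10.23 and Sf3b2 9.85, each identical in the 3 samples. Sf3b6, for a small protein that contacts the branch point, had 9.27, 9.02 and 9.02, and Sf3b4 had 8.38, 8.58 and 8.58, which fell within 1 of the threshold in sample 1. Sf3b5 had 9.25 ± 0.01. Of the SF3A subunits, Sf3a2 had 9.33, 9.01 and 9.43, Sf3a1 8.97 ± 0.06 and Sf3a3 9.61 in each sample.

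The promoters of the SF3A genes are shown because each holds the letters CCGGAAG, the core recognised by ETS-family transcription factors, within the 300 bases around the start of the gene. The sequences run 5′ to 3′ on the gene's own strand, from 250 bases before the start to 50 after it, in the RefSeq table of mouse build GRCm38.p6, and capitals mark the motif or its reverse complement. Rbfox3, a gene of neurons that was not above the threshold, is shown beside them and holds no match. The promoter of Sf3b1, which was above the threshold, holds none either.
Sf3a1: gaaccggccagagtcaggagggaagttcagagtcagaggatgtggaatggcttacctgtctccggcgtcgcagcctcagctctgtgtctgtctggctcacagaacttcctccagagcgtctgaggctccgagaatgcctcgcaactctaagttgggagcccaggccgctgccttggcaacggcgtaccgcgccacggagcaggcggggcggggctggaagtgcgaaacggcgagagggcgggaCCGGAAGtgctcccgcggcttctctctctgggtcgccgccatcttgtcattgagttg
Sf3a2: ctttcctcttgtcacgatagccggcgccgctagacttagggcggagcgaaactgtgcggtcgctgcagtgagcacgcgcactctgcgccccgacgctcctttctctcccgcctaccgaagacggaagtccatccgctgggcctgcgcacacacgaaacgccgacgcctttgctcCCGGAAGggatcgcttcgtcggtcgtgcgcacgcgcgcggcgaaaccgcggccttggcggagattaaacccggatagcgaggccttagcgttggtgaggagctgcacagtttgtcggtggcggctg
Sf3a3: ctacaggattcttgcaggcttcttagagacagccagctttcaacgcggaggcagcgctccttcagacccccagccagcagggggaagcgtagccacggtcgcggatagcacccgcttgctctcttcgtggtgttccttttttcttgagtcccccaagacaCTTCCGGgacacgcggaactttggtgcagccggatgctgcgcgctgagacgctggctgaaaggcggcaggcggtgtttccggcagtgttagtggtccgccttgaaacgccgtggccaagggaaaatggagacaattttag
Rbfox3: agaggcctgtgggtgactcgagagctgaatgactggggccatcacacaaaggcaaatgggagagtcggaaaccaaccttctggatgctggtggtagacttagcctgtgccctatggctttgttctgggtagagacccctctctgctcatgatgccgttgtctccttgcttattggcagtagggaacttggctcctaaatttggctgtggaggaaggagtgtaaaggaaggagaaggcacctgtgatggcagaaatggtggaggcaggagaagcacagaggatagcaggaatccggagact
These windows are chr11:4160104-4160403 (+ strand), chr10:80798485-80798784 (+), chr4:124714611-124714910 (+) and chr11:118760992-118761291 (- strand). The match began 7 bases before the start of Sf3a1, 76 before that of Sf3a2 and 90 before that of Sf3a3, where it lay on the other strand. CpG dinucleotides numbered 24, 41 and 22 in the SF3A windows, and 4 in that of Rbfox3.

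Across the class, 6 of the 7 SF3A and SF3B genes in the promoter table held CCGGAAG on either strand, all but Sf3b1. So did 4 of 8 snRNP genes, 4 of 11 PRPF genes, 3 of 10 SR genes, 2 of 15 hnRNP genes and 1 of 10 LSM genes. None did of the 2 U2AF genes or of the 12 genes of the PTBP, MBNL, CELF and RBFOX families listed there. In total 20 of 75 members with a promoter had a match (26.7%), against 9.93% of the 27025 genes in the table. Counted by window, 25 of 112 member promoters (22.3%) and 8.86% of all promoters held it. Base composition differed as well. The ratio of observed to expected CpG was at least 0.6 in 89 of the 112 member windows (79.5%) and in 35.8% of all windows. Among windows with that ratio, 27.0% of those of members and 18.7% of all held the motif. The other motifs were searched on both strands too, and overlaps between matches of different motifs were not removed. They were the palindrome TCGCGA (7.14% of member windows, 2.50% of all), the YY1-like GCCATNTTG (7.14% and 2.51%), ACTACAA (3.57% and 3.24%), the palindromic NRF1 core (0.893% and 0.971%) and TATAAA (8.93% and 13.6%). These shares count windows, and overlapping windows of 1 gene count separately. Such were those of Sf3b2 with ACTACAA, of Srsf4 with TCGCGA and of Lsm7 with GCCATNTTG. A match describes the letters and shows no binding.

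The U2AF genes, whose products read the 3′ end of the intron, were all detected. U2af2, for the subunit that binds the polypyrimidine tract, had 9.83, 9.73 and 9.73, and U2af1, for its small partner, 9.66, 9.63 and 9.66. U2af1l4, a relative of U2af1, had 9.94, 9.55 and 9.94. A further probe set that carried the symbols U2af1l4 and Igflr1 had 9.60 in each sample.

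Many of the PRPF proteins act from the assembly of the U4, U5 and U6 snRNPs to the catalytic steps. All 12 PRPF genes passed the threshold, 11 of them by more than 1. Prpf8, the scaffold of the catalytic centre, had 10.65, 10.69 and 10.66. The kinase gene Prpf4b had 10.99 in each sample and Prpf38b had 10.69, 10.77 and 10.70. Among U4, U5 and U6 snRNP proteins, Prpf6 had 9.83 in each sample, Prpf3 9.52 ± 0.03, Prpf4 8.86 in each sample and Prpf31 9.13, 9.00 and 9.13. Prpf19, for a ubiquitin ligase of the spliceosome, had 8.71 ± 0.01. Prpf18, which acts in the second step of splicing, had 8.39, 8.39 and 8.42, which fell within 1 of the threshold in samples 1 and 2. Prpf38a had 10.05, 9.96 and 10.07, and the widest range over the samples in the class, that of Prpf31, was 0.12.

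The LSM proteins act as rings on several RNAs. All 13 genes passed the threshold, but 4 did so by less than 1. Of the ring that binds the U6 RNA, Lsm3 had 10.54, 10.59 and 10.81, Lsm5 10.09, 10.28 and 10.28, Lsm6 10.78, 10.73 and 10.78, Lsm7 10.83, 10.45 and 10.68, Lsm8 10.61, 10.45 and 10.61, and Lsm4 8.50 in each sample. The ring member Lsm2, at 7.71 in each sample, was close to the threshold. So was Lsm1, at 7.80, whose product takes the place of Lsm8 in the ring that promotes mRNA decay in the cytoplasm. Lsm10 and Lsm11, for the U7 snRNP that processes histone mRNA, had 8.05 ± 0.01 and 7.73. Lsm14a, for a protein of cytoplasmic P-bodies, had 11.01, 11.09 and 11.09. The 4 low genes Lsm1, Lsm2, Lsm10 and Lsm11 were no longer called at the 99th percentile of the silent probe sets. With Celf3 and Celf5 they were the 6 members lost there, and 35.3% of named genes were called at that percentile.

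Most hnRNP genes had signals far above the threshold. Of 17 genes 16 lay more than 1 above it, with means from 9.46 to 12.52. Hnrnph1 had 12.52 in each sample, Hnrnpa2b1, whose product also sorts RNA for transport, 12.45, 12.47 and 12.46, and Hnrnpk 12.42, 12.45 and 12.45. Hnrnpu, for a protein that binds chromatin-associated RNA, had 12.40 ± 0.03. Hnrnpdl had 11.90, 11.90 and 11.68 and was the hnRNP gene with the widest range, while Hnrnpc had 10.77, 10.84 and 10.85. Hnrnpa0 had 7.29, 7.29 and 7.36 and was below the threshold in each sample, by 0.19 in sample 1. Hnrnpa1 and Hnrnpa3, which are no members because each shared its probe sets with other symbols, also passed the threshold with every such probe set. The 9 probe sets with Hnrnpa3 had means from 12.06 to 12.67 and the 5 with Hnrnpa1 from 9.53 to 11.74.

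The tissue-restricted regulators showed a mixed pattern. All 3 MBNL genes lay more than 1 above the threshold. Mbnl1, whose product drives the switch to adult exons in muscle, had 11.04, 11.23 and 11.15. Mbnl2 had 11.14, 11.22 and 11.14, and Mbnl3 10.05, 10.27 and 10.14. Sample 2 was the highest for each of the 3 genes. It alone was the highest for 17 of the 83 detected members (20.5%). This share was not counted for all named genes. Of the 3 RBFOX genes, Rbfox2, the member with broad expression outside neurons, had 9.34 in each sample, whereas Rbfox1, a gene of neurons and muscle, had 7.00 and the neuronal Rbfox3 had 6.94. Neither was above the threshold. Both epithelial splicing regulators were also below it. Esrp1 stood at 5.63 and Esrp2 at 7.32 in each sample, so Esrp2 fell short by as little as 0.09 in sample 3.

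The CELF genes ran from far above to below the threshold. Celf1, the member with the broadest expression, had 11.26, 11.22 and 11.26, and Celf2, enriched in brain, heart and muscle, 8.86 in each sample. A further probe set of Celf2 had 6.83, 6.65 and 6.83, below the threshold in each sample. Celf5 had 8.12 in each sample and Celf3 7.50, 7.50 and 7.46, which exceeded the threshold by as little as 0.02. Celf6 at 7.24 in each sample and Celf4 at 7.09, 7.05 and 7.05 were not above it. Celf3, Celf4, Celf5 and Celf6 are known mainly from the nervous system. Of 10 neuronal markers, which included Rbfox3 itself, 1 was above the threshold, the scaffold gene Dlg4 at 9.11, 8.88 and 8.88. Among 10 striated muscle markers 5 were above the threshold, namely Ckm, Mb, Tnni2, Acta1 and Tnnt3, but none by more than 1. Ckm had 8.08 and Tnnt3 7.87 in each sample. Of the 12 tubule and epithelial markers 5 were above it, namely Umod at 9.51, 9.18 and 8.22, Krt8 at 8.41 ± 0.01, Slc34a1 at 8.15 ± 0.16, Cldn4 at 7.85 and Krt7 at 7.75 ± 0.09. The adhesion genes Cdh1 at 6.99 ± 0.01 and Epcam at 6.13 were among the others.

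The PTBP family, which represses exons through pyrimidine-rich sequence, was detected in full and held both members with the widest range. Ptbp2, best known for its expression in developing neurons, had 9.64, 10.27 and 9.98 in samples 1, 2 and 3 (9.97 ± 0.31). Ptbp3 had 10.57, 11.14 and 11.10 (10.93 ± 0.32). Ptbp1, the member with broad expression, had 10.16, 10.11 and 10.11 (10.13 ± 0.02). Sample 1 was the lowest for Ptbp2 and Ptbp3 and the highest for Ptbp1. With 3 samples in 1 group these differences were not tested, and fewer cells of a type and less RNA per cell cannot be told apart in such bulk samples.

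Variation between the samples was small for most members. Of the 91 genes 3 had a range over 0.5 (3.30%), against 3.43% of named genes, a share near that background. They were Ptbp2 (0.62), Ptbp3 (0.57) and Snrpe (0.55), followed by Sf3a2 (0.43), U2af1l4 (0.39) and Lsm7 (0.38). Each of the first 3 rested on a single sample in part: without sample 1 only Snrpe remained over 0.5, without sample 2 only Ptbp3, and without sample 3 Ptbp2 and Ptbp3. The median range was 0.0322 for the 83 detected members and 0.0341 for the 10842 named genes above the threshold, and the 90th percentile was 0.238 for the members and 0.333 for the named genes.

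**Figure D2:**
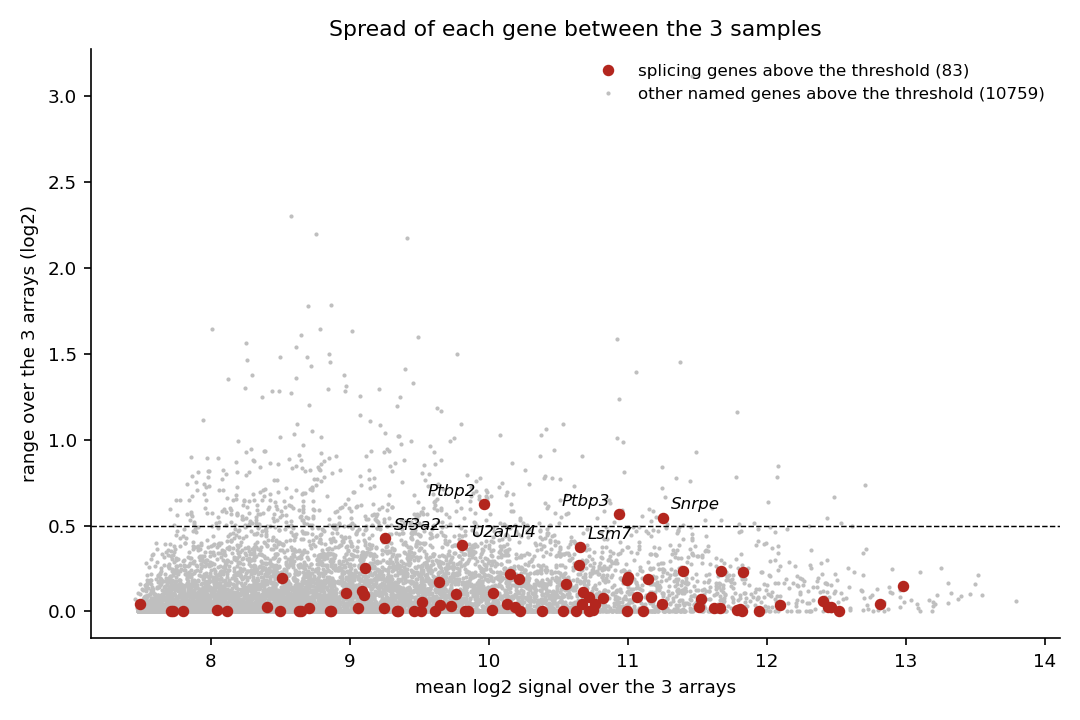
Range over the 3 arrays (log2, vertical axis) against mean log2 signal (horizontal axis) for the 83 splicing genes above the threshold (red) and the 10759 other named genes above it (grey). The dashed line marks a range of 0.5, which Ptbp2, Ptbp3 and Snrpe exceed, and the labelled genes are the 6 with the widest range among the splicing genes.

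Identical values limited these spreads. Of the 91 members 30 had 1 value in all 3 samples, against 51.1% of named genes, and 36 had the same value in exactly 2 samples, against 27.6%. An SD of 0.00 therefore says nothing about the error of the measurement. Since so many deviations were exactly 0, the median deviation of the detected members from their 3-sample mean was 0.00 in each sample, as it was for all detected genes.

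Sample 1 alone was the lowest for 21 of the 83 detected members (25.3%), against 18.8% of the named genes above the threshold. Sample 2 alone was the lowest for 17 (20.5%), against 15.4%, and sample 3 alone for 6 (7.23%), against 10.8%. By class, sample 1 was the lowest for 5 of 9 SR genes, 4 of 16 hnRNP genes, 3 of 13 LSM genes, 2 of 12 PRPF genes, 2 of 9 SF3 genes, 2 of 3 PTBP genes, 2 of 3 MBNL genes and 1 of 10 snRNP genes. Sample 2 was the lowest for 5 of 10 snRNP genes, 3 of 13 LSM genes, 2 of 12 PRPF genes, 2 of 9 SF3 genes, 2 of 3 U2AF genes, and 1 each of the SR, hnRNP and CELF genes. Differences between the classes were not tested. In the same samples the summed log2 signal of the 14 mesangial markers was 163.3, 163.5 and 162.9. The sum over the 8 endothelial markers was 74.5, 73.7 and 75.0, that over the 6 podocyte markers 49.1, 48.7 and 49.3, and that over the 12 tubule and epithelial markers 88.4, 88.3 and 86.8. The endothelial and podocyte sums were lowest in sample 2, and the mesangial and tubule sums in sample 3. In the tubule and podocyte lists single genes carried much of the difference. In samples 1, 2 and 3 Umod had 9.51, 9.18 and 8.22, and Synpo, a podocyte marker, had 8.30, 8.08 and 8.39. The part of the other cell types in the splicing genes' differences was not tested.

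**Figure D3:**
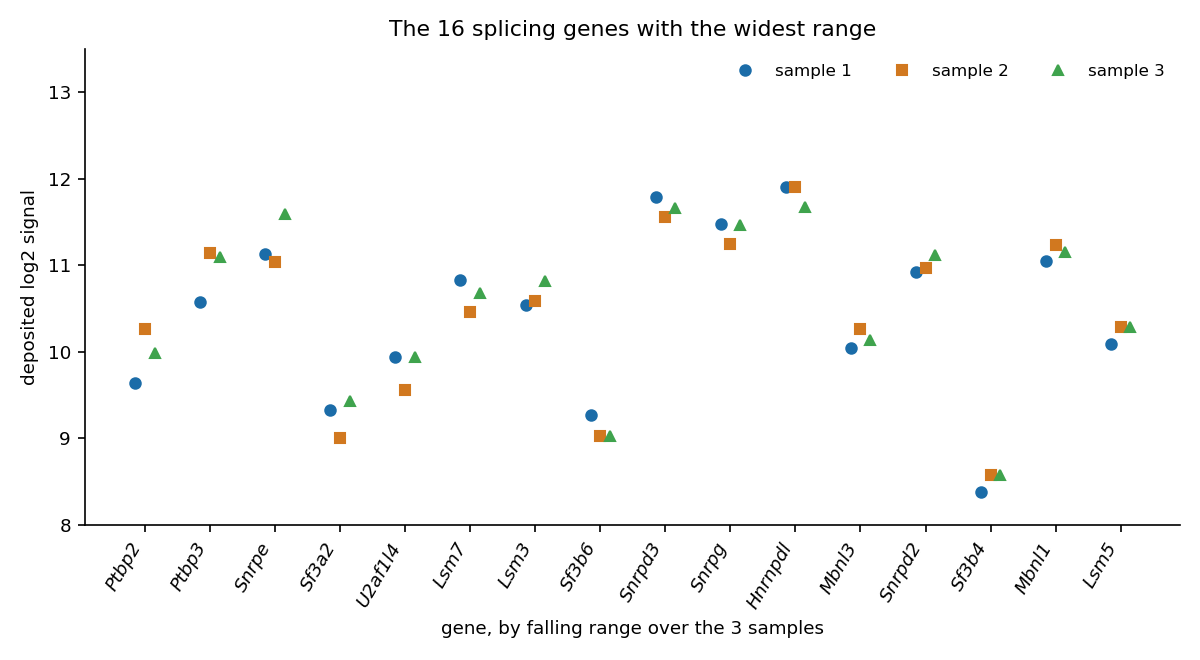
Deposited log2 signal of the 16 splicing genes above the threshold with the widest range, 1 symbol per sample, ordered by falling range. Sample 1 (circles) is the lowest for Ptbp2, Ptbp3, Lsm3, Mbnl3, Snrpd2, Sf3b4, Mbnl1 and Lsm5, sample 2 (squares) for Snrpe, Sf3a2, U2af1l4, Lsm7, Snrpd3 and Snrpg, and sample 3 (triangles) for Hnrnpdl.

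For several members the value depended on the probe set taken. Of the 91 genes 17 had more than 1 probe set, 44 in all, and the one with the highest mean stood for the gene. Probe sets are numbered along the chromosomes. The commonest chromosome among the 10 named neighbours on either side in the numbering was therefore set beside the chromosome that RefSeq gives for the gene. It was another chromosome for 21 of the 118 probe sets of members (17.8%), which belonged to 13 genes, against 3.18% of 21698 named probe sets with a placed gene. The place of a probe set is thus inferred from the numbering throughout, as the coordinates of the probes were not given. Many spliceosomal genes are known to have processed copies elsewhere in the genome, and probes that match gene and copy alike cannot separate their transcripts. Whether such copies account for the probe sets placed elsewhere here was not tested.

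In 10 of the 17 genes the probe set that stood for the gene had its neighbours on another chromosome. For Srsf3, a gene of chromosome 17, that probe set lay among genes of chromosome 3 and had 12.98 ± 0.08, whereas the probe set among genes of chromosome 17 had 10.10, 10.10 and 10.26. For Srsf10, of chromosome 4, the probe set taken lay among genes of chromosome 13, and the one on chromosome 4 had 9.69, 9.50 and 9.50 against 11.62 for the one taken. For Snrpc the probe set on the gene's own chromosome had 8.07 in each sample, against 9.10 for the one taken, and for Lsm5 it had 9.34, 9.58 and 9.53, against 10.22. For Hnrnpf, Hnrnpk, Snrpd2 and Srsf5 the means of the 2 differed by less than 0.1, and for Hnrnph2 and Sf3b4 by 0.27 and 0.35. All 10 genes passed the threshold with the probe set of their own chromosome, so that 83 of 91 remained above it. The count more than 1 above it became 74, as Snrpc no longer reached that level.

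**Figure D4:**
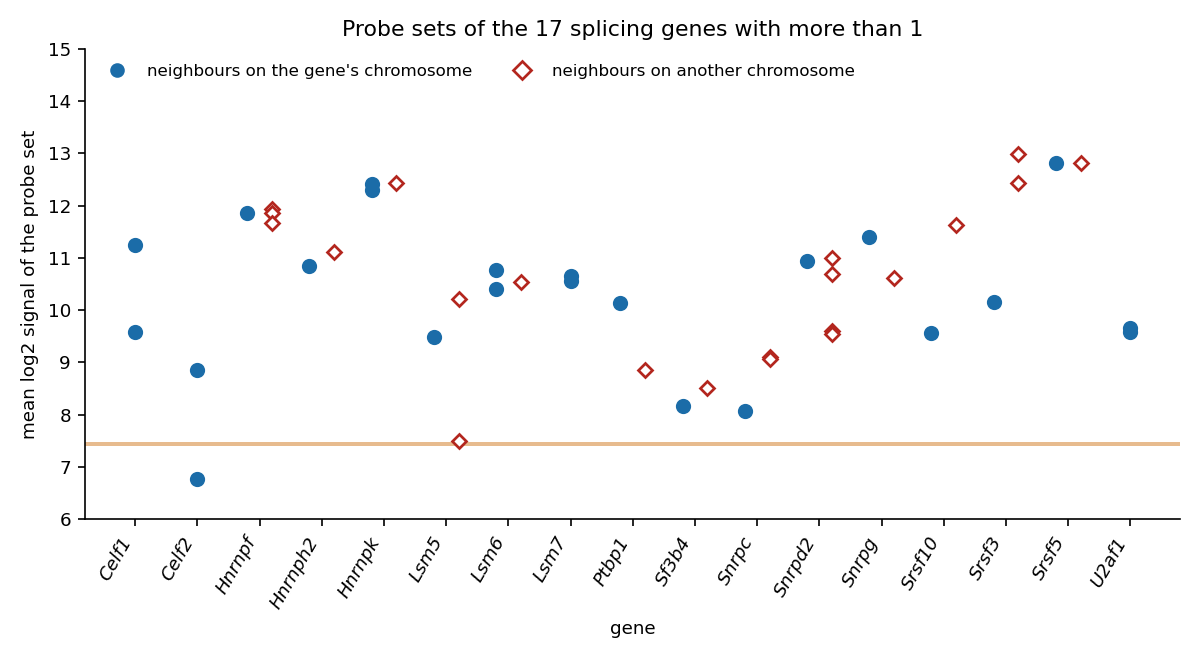
Mean log2 signal of each probe set of the 17 splicing genes with more than 1, with filled circles where the neighbours in the numbering lay on the gene's own chromosome and open diamonds where they lay on another. The band spans the silent-gene thresholds, and the open diamonds of Srsf3 and Srsf10 lie farthest above the filled circle of the same gene.

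In 6 of the 17 genes the same sample alone was the lowest in every probe set. This share was not counted for all named genes with several probe sets. All 5 probe sets of Snrpd2 were lowest in sample 1 and highest in sample 3, with 10.92, 10.96 and 11.12 for the one taken and 10.74, 10.96 and 11.13 for the one on the gene's own chromosome. Those with the lowest means had a range of 0.60 each. Both probe sets of Lsm7, with 10.83, 10.45 and 10.68 and with 10.84, 10.31 and 10.52, were highest in sample 1 and lowest in sample 2. Celf1 differed between its probe sets, with 11.26, 11.22 and 11.26 for one and 9.49, 9.61 and 9.61 for the other. Probe sets that share probes are no independent measurements. Celf2 was the gene whose probe sets fell on either side of the threshold on the same chromosome, with 8.86 in each sample for one and 6.83, 6.65 and 6.83 for the other.

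Splicing genes outside the named families gave a like picture. Of 137 such genes on 7 lists, 130 were measured, 119 lay above the threshold (91.5%) and 104 more than 1 above it (80.0%), beside the 58% and 32.7% of named genes. All 16 genes of U1, U2 and branch site recognition passed by more than 1, among them Luc7l3 at 12.21 ± 0.02, Luc7l2 at 11.68 ± 0.07 and Rbm5 at 11.41 ± 0.08. So did all 10 of the U4, U5 and U6 snRNPs, with Snu13 at 10.46 ± 0.01, Ppih at 10.09 ± 0.14 and Snrnp27 at 10.04 ± 0.15. Of 18 genes of the catalytic and Prp19 complexes 17 did so, with Syf2 at 11.65 ± 0.08, Cwc15 at 11.43 ± 0.03 and Snw1 at 10.92 in each sample. All 8 genes of the minor spliceosome, which removes a rare class of introns, passed the threshold, 5 of them by more than 1, with Zcrb1 at 11.96 ± 0.12, Scnm1 at 9.82 ± 0.30 and Rnpc3 at 9.24 in each sample. Of 15 genes of snRNP assembly 13 passed and 9 by more than 1, with Tgs1 at 9.98 and Clns1a at 9.91 in each sample and Strap at 9.84 ± 0.05. Coil, for the scaffold of Cajal bodies, at 6.63, 6.63 and 6.83 and Gemin4 at 7.06 were not above the threshold.

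Of 21 SR-related genes and SR protein kinases 20 were above the threshold. The kinase gene Clk1, whose product phosphorylates SR proteins, had 12.49, 12.59 and 12.53, Rbm39 11.91, 12.06 and 12.05, and Pnisr 11.59, 11.79 and 11.76. Each was lowest in sample 1. Srrm4, a neuronal splicing activator, stood at 6.76 and was the exception. Of 42 other regulators 34 passed, with the helicase gene Ddx5 at 13.17 ± 0.04, Sfpq at 12.04 ± 0.01 and Syncrip at 11.85 ± 0.02. The 8 that did not were Khdrbs2, Nova1, Elavl2, Elavl3, Elavl4, Rbm20, Rbm47 and Msi1. Most of these are known from neurons, while Rbm20 is a regulator of heart muscle and Rbm47 one of epithelial cells. Elavl4 stood at 5.25 and Rbm47 at 5.83 in each sample, and Rbm20 at 7.26. Other regulators known from neurons or muscle did pass, among them Rbm24 at 8.73 ± 0.05, Nova2 at 7.74 ± 0.08, Srrm3 at 7.59 and Srpk3 at 7.56, chosen after their values were seen.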

How the data were processed

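Total RNA from 3 samples of sorted mesangial cells was amplified in 1 round with the WT-Ovation Pico system, biotin-labelled and hybridised to 1 array each, as the labels' protocols state. The authors deposited log2 signals per probe set. The submitters' processing notes name Affymetrix Expression Console. How background was corrected, how probes were summarised and which version was used is not given in the sources used here. That the log is to base 2 was judged from the highest value, 14.39. Array medians were 7.53, 7.56 and 7.54. Scale and centring are otherwise unknown, and nothing was rescaled.

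Of 35557 probe sets the platform annotation listed 23410, of which 21789 had 1 gene symbol and 1621 several. Symbols were updated through the Entrez number with RefSeq (GRCm38.p6), which matched 21698. The probe set with the highest mean over the 3 arrays stood for a gene. Calls were counts against the silent-gene threshold, with no test, since there is 1 group. The number of arrays limits the precision. The members and lists were chosen with earlier results of these data known. Every member may be named. Values per sample are given for the PTBP, MBNL, CELF, RBFOX and ESRP genes, for the 3 highest, the lowest and the 3 widest of each other class, for the 10 widest members above the threshold, and for all members not above it. Of each list of other splicing genes the 3 highest and those not above the threshold are named, and further genes named were partners of members or chosen after their values were seen. Counting was tested on simulated data. Python 3.11.15, pandas 2.3.3, numpy 2.4.6 and matplotlib 3.10.9 were used.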

Additional observations from a re-analysis of the deposited data

How the results depend on the processing

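The count of 83 detected members stood against 58% of named genes. It became 86 at the 90th percentile of the silent probe sets (68.8% of named genes) and 77 at the 99th (35.3%). With the probe set of lowest mean it was 81 (56.9%), and Celf2 and Lsm5 were lost. It stayed at 83 with olfactory receptors alone, with the mean over the arrays, without any 1 sample and with the probe set of the gene's own chromosome, an alternative chosen after seeing the data. In these settings 58% to 59.9% of named genes were called. With probe sets of several symbols the member count was 89 of 97, against 58.3% of named genes. The count more than 1 above the threshold ran from 60 at the 99th percentile to 80 with probe sets of several symbols. The share of named genes at this stricter call was not counted for the alternative settings. The count of the other splicing genes above the threshold ran from 104 at the 99th percentile to 121. The 3 members with a range over 0.5 became 5 with the probe set of lowest mean, 6 at a range over 0.3 and 0 at a range over 1, and 1 to 2 when a sample was left out. With 2 samples a range can only be narrower, and a cutoff changes its count by construction. For the probe set the cause was not tested. No paired analysis was possible because there is only 1 group. Signals within 1 of the threshold are close to background.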

Other observations

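Nova1, a splicing regulator known from neurons, varied more between the samples than any member. It had 8.85, 7.71 and 7.01 in samples 1, 2 and 3 (7.86 ± 0.93), and was above the threshold in samples 1 and 2. Its paralog Nova2 had 7.79, 7.65 and 7.79. Among the other splicing genes only Gemin6, of snRNP assembly, at 8.48, 8.44 and 7.87, and Scnm1, of the minor spliceosome, at 10.17, 9.68 and 9.63, also had a range over 0.5. These 3 were highest in sample 1, and the cause was not tested.

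The imprinted Snrpn, which shared its probe set with Snurf, encodes an Sm protein of neurons and heart that replaces that of Snrpb. The shared probe set had 7.54, 7.54 and 8.20, which is above the threshold in each sample, by more than 0.5 in sample 3 alone.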
